A study of Mus musculus with 36 samples.

Results

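The oligoadenylate synthetase (OAS) family was followed in sorted mouse spleen dendritic cells (DCs) after poly IC, a synthetic double-stranded RNA. Its members were the genes Oas1a, Oas1b, Oas1g, Oas2, Oas3, Oasl1 and Oasl2, found by their symbols in the array annotation: 7 of 16593 named genes, read by 15 of 25697 probes. Messenger RNA was measured on 36 Illumina bead arrays of sorted CD11chi CD3- DX5- B220- DCs on the C57BL/6 background. DCs of the groups labelled poly IC came from mixed bone marrow chimeras of WT with PRR-/- or WT with IFNAR-/- marrow. In these chimeras WT and knockout DCs shared a mouse whose other cells could respond to poly IC. The labels do not say which samples came from the same mice. PRR-/- DCs lacked both MDA5 and TLR3, receptors for poly IC, and IFNAR-/- DCs lacked the type I IFN receptor. IFNAR-/- (3 arrays) and WT (6 arrays) DCs were taken 14 h after an intraperitoneal injection of 50 µg of poly IC, and PRR-/- (5 arrays), IFNAR-/- (5 arrays) and WT (8 arrays) DCs 4 h after it. The comparison group held 9 arrays labelled unstimulated, with no genotype given. According to the study's methods its negative controls joined DCs of PBS-injected chimeras and of PRR-/- mice given poly IC, and the labels do not say which array is which. For at least part of the samples the sorted DCs of several mice were pooled. Arrays 1 and 2 of the PRR-/- 4 h, IFNAR-/- 4 h and unstimulated groups differed less than any other pair within a group and were averaged, which leaves 33 samples, 3, 6, 4, 4, 8 and 8 in the order given.

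OAS enzymes are induced by type I IFN and are switched on by double-stranded RNA. They then join ATP into 2′-5′-linked oligoadenylates (2-5A), a second messenger of the antiviral response. In mice the family has many Oas1 copies, of which Oas1b is the flavivirus resistance gene and is truncated in most laboratory strains. Oas2 and Oas3 are larger enzymes with repeated OAS units. Oasl1 and Oasl2 carry ubiquitin-like domains. Oasl1 makes no 2-5A and restrains the translation of Irf7 messenger RNA in mice, whereas mouse Oasl2 has kept synthetase activity.

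On these arrays 10428 to 12326 probes were detected (detection p under 0.05). Levels below are log2 signals after quantile normalization, with signals under the background of an array raised to a floor that lies at 6.49 on this scale. Of 15 member probes 14 passed the filter of detection on at least 3 arrays, and 1 Oas1g probe was detected on no array. Each gene was read from its brightest probe, and levels of different genes were not compared, as they come from different probes. The highest member signal was 20211 units, against 46329 units or more for the brightest probe of each unstimulated array. A gene was called at an adjusted p under 0.05 and a change of at least 2-fold in limma, fitted on 9606 genes. These p-values measure the spread between the samples, which may in part be technical. As the RNA came from bulk sorted cells, fewer cells of a type and less RNA per cell cannot be told apart. MDA5 (Ifih1) was detected on 0 of 5 PRR-/- arrays and 8 of 8 WT arrays at 4 h, and Tlr3 on 1 of 5 PRR-/- and 8 of 8 WT arrays, while the Ifnar1 probe was detected on no array and checks nothing. Of 6 markers of conventional DCs 5 were detected on every array. Of 4 T cell, 2 B cell and 2 NK cell markers tested, 0 were called in any comparison. Summed signals of 4 NK cell markers were 409 to 1428 units in PRR-/- DCs at 4 h and 1456 to 3731 units in WT DCs at 14 h. In unstimulated DCs they were 552 to 3350 units.

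Among the unstimulated samples, replicates 4 and 9 stood apart for this family. Unstimulated replicate 9 lay below every other unstimulated sample for 4 of 7 members, against 14.1% of all genes tested, and the remaining 3 were at the floor in several samples. Unstimulated replicate 4 lay above every other one for 6 of 7 members, against 13% of all genes. In the same direction, Unstimulated replicate 9 was lowest for 6 of 8 IFN-inducible genes of a list given below, and replicate 4 was highest for 5 of the 8. The array of replicate 4 detected 11497 probes and that of replicate 9 detected 11908, against 11492 to 11750 on the other unstimulated arrays. For IFNAR-/- DCs, calls of members that turned on replicate 9 are given with and without it. Changes of WT and PRR-/- DCs against unstimulated DCs, and those of listed genes, are given with both samples included. With each sample left out in turn, the WT 4 h change against unstimulated DCs ranged over 3.43 to 4.04 for Oas1g and 3.02 to 3.81 for Oasl2 (log2). All 7 members stayed called in each of these fits.

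The annotated start regions of the members are shown because the family members differed in how IFNAR-/- DCs given poly IC compared with unstimulated DCs. RefSeq windows (mouse build GRCm38.p6) were found for 5 of 7 members. They are 300 bases long, on chromosome 5, and written in the direction of the gene. Capitals mark matches on either strand to AAANNGAAA, the core of the element bound by IRF proteins and the ISGF3 complex. Oas2, Oas3 and the Oas1 genes follow one another on this chromosome, and Oasl2 and Oasl1 lie next to each other elsewhere on it. Oas1b is annotated there as a transcribed pseudogene.
Oas1a (chr5:120907476-120907775, minus strand): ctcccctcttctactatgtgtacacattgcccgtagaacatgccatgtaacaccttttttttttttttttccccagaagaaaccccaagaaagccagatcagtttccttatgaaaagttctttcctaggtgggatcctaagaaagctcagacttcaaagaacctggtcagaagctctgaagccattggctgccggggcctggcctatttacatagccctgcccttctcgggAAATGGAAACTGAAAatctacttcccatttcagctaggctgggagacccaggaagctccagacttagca
Oas1g (chr5:120887564-120887863, minus strand): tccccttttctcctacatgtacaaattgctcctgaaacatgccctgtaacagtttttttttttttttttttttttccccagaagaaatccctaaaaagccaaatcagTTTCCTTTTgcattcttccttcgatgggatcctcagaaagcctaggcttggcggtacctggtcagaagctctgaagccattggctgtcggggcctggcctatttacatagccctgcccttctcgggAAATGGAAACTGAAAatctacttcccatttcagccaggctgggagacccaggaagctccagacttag
Oas3 (chr5:120777610-120777909, minus strand): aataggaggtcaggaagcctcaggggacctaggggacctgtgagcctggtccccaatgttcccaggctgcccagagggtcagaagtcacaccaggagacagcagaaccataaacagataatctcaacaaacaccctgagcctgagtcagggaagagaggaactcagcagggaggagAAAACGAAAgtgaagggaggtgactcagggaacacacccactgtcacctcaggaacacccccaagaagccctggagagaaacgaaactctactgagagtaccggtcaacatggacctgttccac
Oasl1 (chr5:114922990-114923289, plus strand): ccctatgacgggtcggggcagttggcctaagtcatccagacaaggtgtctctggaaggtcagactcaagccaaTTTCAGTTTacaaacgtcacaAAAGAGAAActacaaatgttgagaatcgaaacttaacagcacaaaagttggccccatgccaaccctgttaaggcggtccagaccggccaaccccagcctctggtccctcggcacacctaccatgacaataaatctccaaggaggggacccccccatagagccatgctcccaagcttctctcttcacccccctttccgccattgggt
Oasl2 (chr5:114896684-114896983, plus strand): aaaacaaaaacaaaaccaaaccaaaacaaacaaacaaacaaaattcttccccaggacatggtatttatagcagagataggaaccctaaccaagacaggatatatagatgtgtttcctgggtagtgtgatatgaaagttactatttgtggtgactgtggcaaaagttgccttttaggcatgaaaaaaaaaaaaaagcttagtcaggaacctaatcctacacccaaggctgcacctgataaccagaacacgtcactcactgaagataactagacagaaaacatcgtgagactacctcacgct

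AAANNGAAA stood in 10.6% of 32851 mouse windows of this length, and a longer form with a G in front of it, which overlaps the shorter one, in 3.44%. The Oas1a window held 2 matches to the short form, beginning at -19 and -13 from the annotated start, and both were also matches to the long form. The Oas1g window held 3, of which those at -17 and -11 matched the long form. This pair of overlapping matches is the same stretch in both genes, whose windows were 85.3% identical. Oas3 had 1 match to both forms, at -74. Oasl1 had 2 matches to the short form, at -177 and -156, and 0 to the long form. Oasl2 had 0 of either in this window. The matches describe letters in these windows, and binding was not measured.

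In WT DCs taken 4 h after poly IC, all 7 members were higher than in unstimulated DCs and no sample of the groups overlapped. Across all genes 4.8% were called higher in this comparison, and 6.91% were higher with no overlap. The median change of the 7 members was 3.53 on the log2 scale, against -0.02 for all genes. Oas1g was 13.46, 13.65 and 13.74 in WT DCs at 4 h (lowest, median and highest of 8) and 6.63, 10.01 and 10.90 in unstimulated DCs. The WT samples lay within 0.28 log2 units of each other, while the unstimulated samples spanned 4.26, with replicate 9 lowest. Oas1g differed by 3.88 ± 0.37 (log2, SE), or 14.7-fold, with a limma adjusted p of 8.83e-10.

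Oas2 was 12.22, 12.71 and 13.31 in WT DCs at 4 h and 6.49, 9.23 and 11.34 in unstimulated DCs (lowest, median, highest). Every WT sample exceeded every unstimulated one, and the highest unstimulated value was that of replicate 4. The change was 3.54 ± 0.38, 11.6-fold (adjusted p = 1.23e-08). Oas3 was 9.55, 9.73 and 9.93 in WT DCs at 4 h, whereas in unstimulated DCs it was detected on 1 of 9 arrays, with a level of 6.49, 6.49 and 6.88. Oas3 thus was off the floor in 1 unstimulated sample, again replicate 4, and rose 9.19-fold (3.20 ± 0.14, adjusted p = 5.8e-17). Oas1a, with 8.12 to 8.67 in WT DCs and 6.49 to 6.70 in unstimulated DCs, rose 3.50-fold. Oas1b, with 7.55 to 8.25 in WT DCs and 6.49 to 6.63 in unstimulated DCs, rose 2.64-fold. Both were near background before treatment, with detection on 3 and 2 of 9 unstimulated arrays, so that these folds, like that of Oas3, depend on how low signals were treated. Over 16 alternatives the log2 change ranged over 2.01 to 4.68 for Oas3, 1.79 to 3.06 for Oas1a and 1.23 to 2.56 for Oas1b, highest with another background correction (neqc) in all 3 genes, and lowest with the mean of all probes of a gene for Oas3 and Oas1b. All 3 stayed called under each.

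Both OAS-like genes rose in the WT DCs as well. Oasl1 was 12.53, 13.65 and 14.43 in WT DCs at 4 h and 6.49, 7.48 and 9.26 in unstimulated DCs. This was the largest change within the family, 5.92 ± 0.37 or 60.6-fold (adjusted p = 1.41e-13). The raw Oasl1 signal ranged over 5340 to 20211 units on the WT arrays and over 99.9 to 653 units on the unstimulated arrays. Oasl2 was 12.78, 14.00 and 14.18 in WT DCs and 6.62, 10.51 and 12.20 in unstimulated DCs. Oasl2 was 9.83 or more in 7 of 8 unstimulated samples, the exception being replicate 9, and rose 11.6-fold (3.53 ± 0.45, adjusted p = 1.87e-07). For both genes WT replicates 1 and 2 were the lowest of the 8 WT samples. Markers of other cells moved in this comparison too. In WT DCs at 4 h, 2 of 3 tested monocyte markers were called higher and 1 lower, and 1 of 3 neutrophil, 2 of 6 red pulp macrophage and 1 of 3 plasmacytoid DC markers were called higher. Of 5 tested markers of conventional DCs 1, Ciita, was called lower (-1.09). Summed signals in WT DCs at 4 h and in unstimulated DCs were 3359 to 9329 and 7407 to 14602 units for monocyte markers, 430 to 929 and 295 to 699 units for neutrophil markers, 1825 to 5300 and 1734 to 2844 units for red pulp macrophage markers, and 3144 to 5903 and 2555 to 4105 units for plasmacytoid DC markers. Their part in the OAS levels was not tested.

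**Figure D1:**
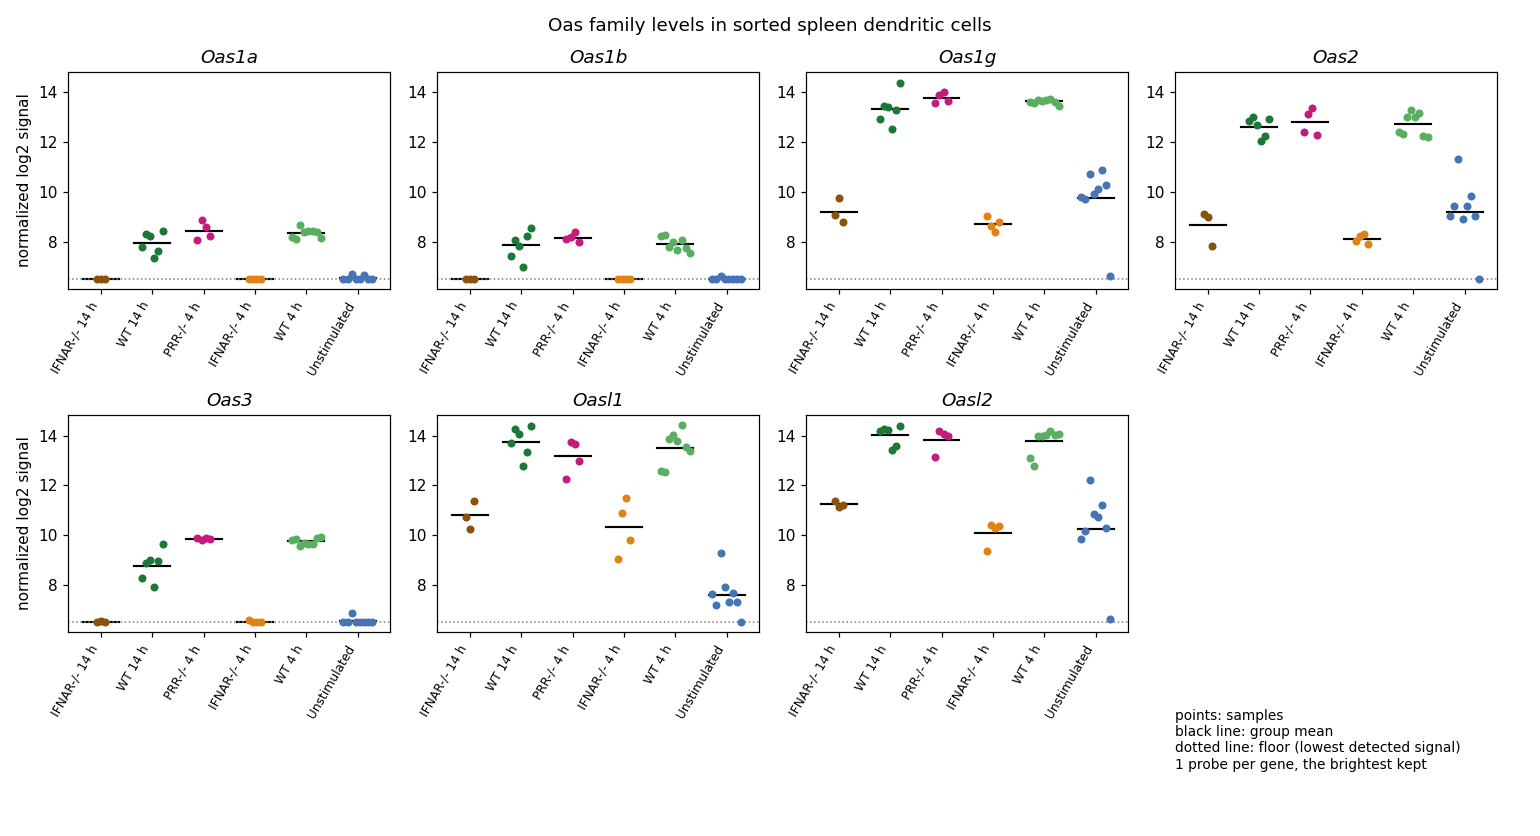
Normalized log2 signal of the 7 OAS family genes (vertical axes) in each of the 33 samples by group. Points are samples, black lines are group means and the dotted line is the floor of 6.49. IFNAR-/- DCs lie at the floor for Oas1a and Oas1b and above most unstimulated samples for Oasl1, while PRR-/- and WT DCs lie above all unstimulated samples for every gene.

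PRR-/- DCs, which cannot sense poly IC through MDA5 or TLR3, showed the same set of 7 genes higher than unstimulated DCs at 4 h, with no overlap of samples. Of all genes 4.86% were called higher in this comparison, and 7.94% were higher without overlap. Oasl1 was 12.26, 13.76, 13.67 and 12.97 in the 4 PRR-/- samples, all above the highest unstimulated sample of 9.26, and the change was 47.5-fold (5.57 ± 0.45, adjusted p = 7.77e-11). Oas1g was 13.57, 13.91, 14.00 and 13.64 in PRR-/- DCs, 16.3-fold over unstimulated DCs. Oas3 kept within 9.81 to 9.88 in PRR-/- DCs. The changes of the 7 genes against unstimulated DCs ran from 1.65 for Oas1b to 5.57 for Oasl1 on the log2 scale. Beside them 4 of 6 red pulp macrophage, 2 of 3 monocyte, 2 of 3 neutrophil and 1 of 3 plasmacytoid DC markers were called higher in PRR-/- DCs, and Ciita lower. Summed signals in PRR-/- DCs at 4 h and in unstimulated DCs were 4998 to 8786 and 1734 to 2844 units for red pulp macrophage markers, 6588 to 13944 and 7407 to 14602 units for monocyte markers, and 743 to 1447 and 295 to 699 units for neutrophil markers. Their part in these changes was not tested.

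When PRR-/- and WT DCs of 4 h were set against each other, 0 of 7 members were called by limma in either direction, and 0 passed an unadjusted p under 0.05. Few genes at all were called in this comparison (0.125% higher and 0.177% lower). The differences, PRR-/- minus WT, ran from -0.35 for Oasl1 to 0.25 for Oas1b on the log2 scale. The precision differed between genes. For Oas1a the 95% interval of the PRR-/- to WT ratio was 0.862 to 1.31 and for Oas3 0.846 to 1.36, so that a 2-fold difference lay outside them. For Oas1g it was 0.584 to 2.09, for Oas2 0.546 to 2.07, for Oasl1 0.415 to 1.48 and for Oasl2 0.481 to 2.28. Each of these includes a 2-fold difference in at least 1 direction. In the same samples Ifnb1, which encodes IFN-β, was 20.3-fold lower in PRR-/- than in WT DCs (adjusted p = 3.3e-11), the only called gene of its list. Markers of red pulp macrophages moved as well, with 3 of 6 called higher in PRR-/- DCs and summed signals of 4998 to 8786 units in PRR-/- and 1825 to 5300 units in WT DCs. Their part in these levels was not tested.

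In IFNAR-/- DCs of the same time point, all 7 members were lower than in WT DCs, again with no sample overlapping. Of all genes 3.8% were called lower in this comparison and 7.19% were lower without overlap. The median change over the 7 genes was -3.23, against 0.02 for all genes. Oas1g was 9.04, 8.63, 8.40 and 8.79 in the 4 IFNAR-/- samples, against 13.46 to 13.74 in WT DCs. The IFNAR-/- samples lay close together and more than 4 log2 units below the lowest WT sample, and the difference was -4.92 ± 0.45, a 30.3-fold lower level (adjusted p = 8.89e-10). Oas2 was 8.04, 8.22, 8.29 and 7.91 in IFNAR-/- DCs, against 12.22 to 13.31 in WT DCs. It was 24.4-fold lower (-4.61 ± 0.47, adjusted p = 8.2e-09), with no IFNAR-/- sample near the WT range.

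Oas1a and Oas1b were detected on 0 of 5 IFNAR-/- arrays and on 8 of 8 WT arrays at 4 h, which makes their differences lower bounds. Oas1a was at least 3.61-fold lower in IFNAR-/- DCs (adjusted p = 6.88e-11), and Oas1b at least 2.68-fold lower (adjusted p = 1.78e-07). Oas3 was 6.58, 6.49, 6.49 and 6.49 in IFNAR-/- DCs, at or next to the floor, against 9.55 to 9.93 in WT DCs. It was 9.36-fold lower (-3.23 ± 0.17, adjusted p = 1.86e-14), with detection on 2 of 5 IFNAR-/- arrays and a range of -4.78 to -2.02 on the log2 scale over 15 alternatives. Oasl2 was 9.33, 10.39, 10.29 and 10.38 in IFNAR-/- DCs, against 12.78 to 14.18 in WT DCs, 12.7-fold lower (-3.67 ± 0.55, adjusted p = 6.13e-06). The single low IFNAR-/- value of Oasl2 was that of the averaged replicates 1 and 2. Oasl1 was 9.03, 10.89, 11.50 and 9.80 in IFNAR-/- DCs, against 12.53 to 14.43 in WT DCs. It was 9.25-fold lower (-3.21 ± 0.45, adjusted p = 2.2e-06) and its 4 IFNAR-/- samples were more widely spread (SD 1.10) than those of any other member. Set against IFNAR-/- DCs instead of WT DCs, PRR-/- DCs had all 7 members called higher (3.91% of all genes), by at least 1.67 for Oas1b to 5.06 for Oas1g on the log2 scale. The IFNAR-/- DCs of 4 h also differed in plasmacytoid DC markers, of which 2 of 3 tested were called lower against WT DCs, with summed signals of 1402 to 1872 units in IFNAR-/- and 3144 to 5903 units in WT DCs over 4 markers. Of 3 tested monocyte markers 1 was called lower as well. Their part in the OAS differences was not tested.

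Whether any member was higher without IFNAR was read from IFNAR-/- DCs at 4 h against unstimulated DCs. As no unstimulated array is labelled IFNAR-/-, an effect of genotype and a response to poly IC cannot be told apart in this comparison. Of 7 members 1, Oasl1, was called higher and 0 were called lower, where 1.53% of all genes were called higher and 1.43% lower. Oasl1 had been singled out with this result known, so its value is a description. The levels of 9.03, 10.89, 11.50 and 9.80 in IFNAR-/- DCs compare with 7.64, 7.17, 9.26, 7.92, 7.30, 7.65, 7.32 and 6.49 in unstimulated DCs (replicates 1 and 2 averaged, then 3 to 9). The groups overlapped in 1 unstimulated sample, replicate 4, which exceeded the lowest IFNAR-/- sample. The change was 2.71 ± 0.45, 6.55-fold with a 95% interval of 3.46 to 12.4, and the adjusted p of the fit was 5.67e-05. The same gene changed by 5.92 in WT DCs, in a comparison that shares the unstimulated samples. Raw Oasl1 signals were 511 to 2731 units on the 5 IFNAR-/- arrays, all detected, and 99.9 to 653 units on the unstimulated arrays. Some marker genes of further cell types were high here too, with 1 of 3 tested monocyte, 2 of 3 neutrophil and 2 of 6 red pulp macrophage markers called higher. Summed signals in IFNAR-/- DCs at 4 h and in unstimulated DCs were 5871 to 9699 and 7407 to 14602 units for monocyte markers, and 770 to 1639 and 295 to 699 units for neutrophil markers. For red pulp macrophage markers they were 2900 to 3902 units in IFNAR-/- DCs and 1734 to 2844 units in unstimulated DCs. Plasmacytoid DC markers lay lower, at 1402 to 1872 units in IFNAR-/- DCs and 2555 to 4105 units in unstimulated DCs. Of 3 tested plasmacytoid DC markers 0 were called, with a median change of -0.57. Their part in the Oasl1 level was not tested.

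All 3 Oasl1 probes were called. By the brightness of the probe, the changes in IFNAR-/- DCs at 4 h were 2.71 ± 0.45, 2.05 ± 0.35 and 1.31 ± 0.32 (adjusted p = 6.32e-05, 8.94e-05 and 0.00424 in limma over all kept probes), and in WT DCs 5.92, 5.66 and 4.82. These 3 were the only probes called among the 14 kept probes of the family in IFNAR-/- DCs, where in WT DCs 12 of 14 were called. In the same fits 1.51% of all 14202 kept probes were called higher and 1.21% lower in IFNAR-/- DCs, and 4.91% were called higher in WT DCs. The other 2, a dim Oas1g and a dim Oas3 probe, were detected on 8 of 8 WT arrays and on 0 of 9 unstimulated arrays, so that their changes in WT DCs, at least 0.78 and at least 0.81, are lower bounds. Samples of the 4 h groups and of unstimulated DCs resembled each other in 3 sets that the labels do not name, and the size of the Oasl1 change differed between them. IFNAR-/- minus unstimulated DCs gave 1.39 in the first set (1 sample each), 2.98 in the second (2 samples each) and 1.88 in the third (1 sample each). WT DCs gave 4.91, 5.81 and 5.53 in the same sets. The low IFNAR-/- sample of 9.03 and the low WT replicates 1 and 2 belong to the first set.

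**Figure D2:**
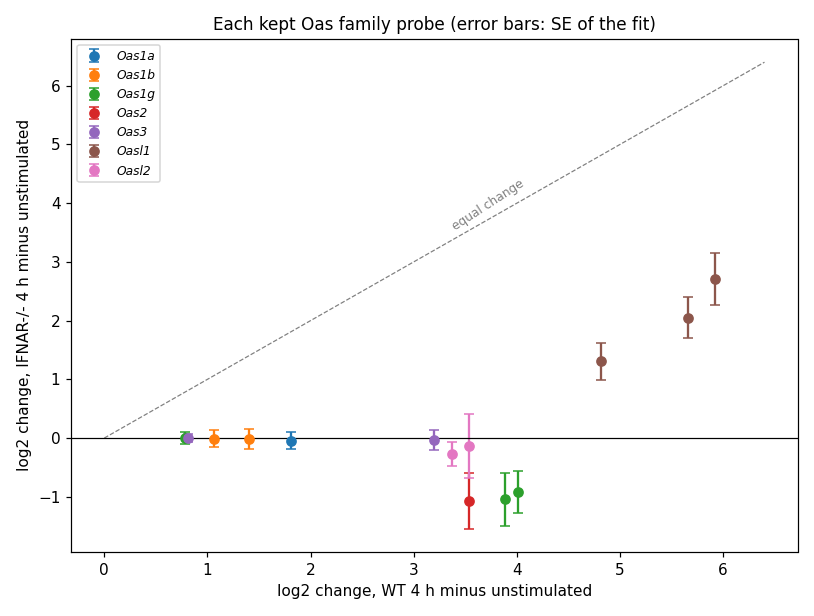
Log2 change of each of the 14 kept OAS family probes in IFNAR-/- DCs at 4 h against unstimulated DCs (vertical axis, with SE) over the change in WT DCs at 4 h against unstimulated DCs (horizontal axis), coloured by gene. The dashed line marks equal change. The 3 Oasl1 probes lie at 1.31 to 2.71 above the zero line, and all probes lie below the dashed line.

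The 6 remaining members were not called in IFNAR-/- DCs at 4 h against unstimulated DCs. Oas1a, Oas1b and Oas3 were at or next to the floor in both groups and gave -0.05, -0.02 and -0.03. Oasl2 gave -0.14 ± 0.55, with IFNAR-/- samples of 9.33 to 10.39 inside the unstimulated range of 6.62 to 12.20. Oas1g and Oas2 were lower in IFNAR-/- DCs by 2.06-fold and 2.10-fold without passing the test (-1.04 ± 0.45, adjusted p = 0.116, and -1.07 ± 0.47, adjusted p = 0.124). For Oas1g all 4 IFNAR-/- samples, 9.04 at most, lay below 7 of 8 unstimulated samples, 9.70 at least, the exception being Unstimulated replicate 9 at 6.63. The same held for Oas2, with 8.29 at most in IFNAR-/- DCs and 8.90 at least in unstimulated DCs apart from replicate 9, which was at the floor.

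The calls of Oas1g and Oas2 turned on Unstimulated replicate 9. Without it both genes were called lower in IFNAR-/- DCs, Oas1g by -1.49 ± 0.24 (adjusted p = 5.68e-05) and Oas2 by -1.45 ± 0.35 (adjusted p = 0.00346), and the count of called members was 3 in place of 1. Of all genes 1.49% were called lower in that fit. Oasl1 changed little, with 2.55 ± 0.45 (adjusted p = 0.00013). The replicate numbers of the labels paired these groups, and with the replicate number as a block the same 3 members were called, with -1.32 ± 0.25 for Oas1g (adjusted p = 0.000785), -1.54 ± 0.35 for Oas2 (adjusted p = 0.00403) and 2.54 ± 0.43 for Oasl1 (adjusted p = 0.000272). Number 9 occurs only among the unstimulated samples, so this block also takes Unstimulated replicate 9 out of the comparison. With the 3 sets of similar samples as a block, a setting added after the data were seen, Oas1g was not called (-1.32 ± 0.53, adjusted p = 0.0879), while Oas2 (-1.56 ± 0.47, adjusted p = 0.0185) and Oasl1 (2.31 ± 0.37, adjusted p = 5.09e-05) were. The sets hold Unstimulated replicates 1 and 2 averaged, 3, 4 and 5, while replicates 6, 7, 8 and 9 belong to none of them. This setting thus leaves out more unstimulated samples than replicate 9 alone. Neither block is a check separate from leaving Unstimulated replicate 9 out. With Unstimulated replicates 4 and 9 both left out the values were -1.40 for Oas1g, -1.16 for Oas2 and 2.80 for Oasl1. As the genotype and kind of each unstimulated sample are not labelled, the source of its OAS level was not tested. For the same reason the lower Oas1g and Oas2 values of IFNAR-/- DCs may mix genotype with poly IC, which cannot be told apart. Plasmacytoid DC marker signals were lower in the same comparison, as given above, and their part in these values was not tested.

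**Figure D3:**
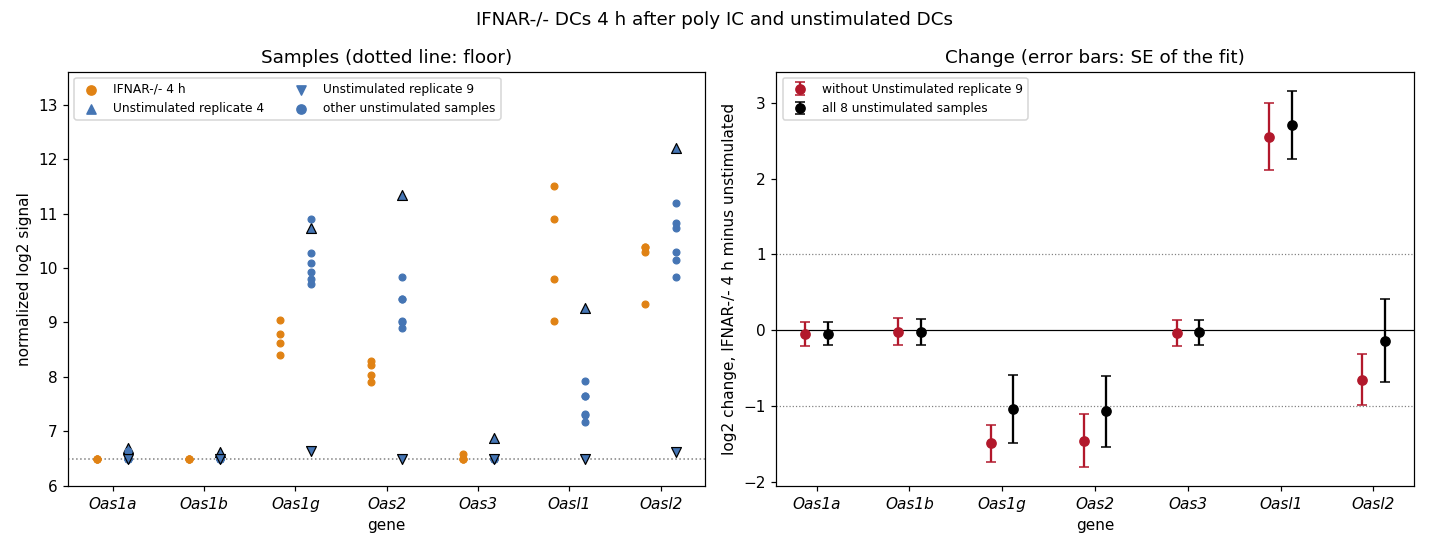
Left, normalized log2 signal of the 7 genes in IFNAR-/- DCs at 4 h (4 samples) and in unstimulated DCs (8 samples), with Unstimulated replicates 4 and 9 as triangles and the floor as a dotted line. Right, log2 change of IFNAR-/- DCs at 4 h minus unstimulated DCs with its SE, without Unstimulated replicate 9 and with all 8 samples, and 2-fold limits as dotted lines. Oas1g and Oas2 move to -1.49 and -1.45 without replicate 9, and Oasl1 stays above 2.5.

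At 14 h all 7 members were still higher in WT DCs than in unstimulated DCs and no sample overlapped, in a comparison where 6.2% of all genes were called higher and 9.45% were higher without overlap. Oasl1 was 12.79, 13.88 and 14.39 in WT DCs at 14 h (lowest, median, highest of 6), 71.6-fold over unstimulated DCs (6.16 ± 0.40, adjusted p = 6.23e-13). Oasl2 was 13.42, 14.20 and 14.37 in WT DCs at 14 h, 13.7-fold over unstimulated DCs. Oas3 was 7.90, 8.92 and 9.62, and 4.68-fold over unstimulated DCs (2.23 on the log2 scale, with 1.19 to 3.60 over 15 alternatives). A second, dimmer Oas3 probe overlapped between the groups and was higher by at least 0.15 (adjusted p = 0.0613 in limma over all kept probes). Of markers of other cells 1 of 3 neutrophil, 1 of 6 red pulp macrophage and 1 of 3 plasmacytoid DC markers were called higher in WT DCs at 14 h and 1 of 3 monocyte markers and Ciita lower, and their part was not tested. The spread between WT samples of 14 h was wide, with WT 14 h replicate 4 lowest for all 7 genes and replicate 6 highest for all but Oas2.

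IFNAR-/- DCs at 14 h had all 7 members lower than WT DCs of that time, without overlap (4.92% of all genes were called lower, and 12.2% were lower without overlap). Oas1g was 9.06, 9.74 and 8.77 in the 3 IFNAR-/- samples, against 12.55 to 14.38 in WT DCs, 17.7-fold lower (-4.14 ± 0.52, adjusted p = 3.94e-07). Oas2 was 9.13, 9.01 and 7.82 in IFNAR-/- DCs, against 12.04 to 13.02 in WT DCs, 15.7-fold lower. The probes read for Oas1a and Oas1b were again detected on 0 of 3 IFNAR-/- arrays, and gave levels at least 2.73-fold and at least 2.56-fold lower. A second, dimmer Oas1b probe was detected on 1 of 3 IFNAR-/- arrays, next to the floor, and was 2.22-fold lower. Oasl2 was 11.38, 11.13 and 11.19 in IFNAR-/- DCs, against 13.42 to 14.37 in WT DCs (-2.78 ± 0.63, adjusted p = 0.000961). Oasl1 was 7.81-fold lower (-2.97 ± 0.52, adjusted p = 4.72e-05) and Oas3 4.77-fold lower (-2.25 ± 0.19, adjusted p = 4.68e-10, with -3.41 to -1.20 over 14 alternatives). For every member the lowest WT sample thus stayed above the highest IFNAR-/- sample on the brightest probe. A second, dimmer Oas3 probe overlapped, with detection on 4 of 6 WT and 0 of 3 IFNAR-/- arrays at 14 h. It was lower by at least 0.15 on the log2 scale (adjusted p = 0.201 in limma over all kept probes).

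Oasl1 was again the 1 member called higher in IFNAR-/- DCs of 14 h against unstimulated DCs, with 0 called lower (1.68% and 0.802% of all genes). As at 4 h, genotype and poly IC cannot be told apart in this comparison. The 3 IFNAR-/- samples, at 10.74, 10.26 and 11.38, all lay above the highest unstimulated sample of 9.26, and 6.12% of all genes were higher without overlap in this comparison. The change was 3.20 ± 0.50, 9.17-fold with a 95% interval of 4.54 to 18.5 (adjusted p = 3.27e-05). Of the Oasl1 probes 2 of 3 were called, where 1.51% of all 14202 kept probes were called higher, and the dimmest gave 0.90 ± 0.35 (adjusted p = 0.122). Oasl2 gave 1.00 ± 0.61 (adjusted p = 0.382), and its unstimulated samples spanned the IFNAR-/- values. Oas1g gave -0.57 ± 0.50 (adjusted p = 0.613) and was called lower once Unstimulated replicate 9 was left out (-1.01 ± 0.27, adjusted p = 0.0112). Markers of other cells were high in these samples. Of monocyte markers 2 of 3 tested, of neutrophil markers 2 of 3 and of red pulp macrophage markers 5 of 6 were called higher in IFNAR-/- DCs at 14 h than in unstimulated DCs. The summed signal of 4 monocyte markers was 42643 to 44051 units in IFNAR-/- DCs at 14 h, against 629 to 5287 units in WT DCs at 14 h and 7407 to 14602 units in unstimulated DCs. For 4 neutrophil markers it was 2911 to 12647 units in IFNAR-/- DCs at 14 h, 332 to 2329 units in WT DCs at 14 h and 295 to 699 units in unstimulated DCs. For 4 plasmacytoid DC markers, of which 0 of 3 tested were called against unstimulated DCs, it was 1590 to 2361 units in IFNAR-/- DCs at 14 h. The same sum was 2314 to 4313 units in WT DCs at 14 h and 2555 to 4105 units in unstimulated DCs. For 6 red pulp macrophage markers the summed signal was 8771 to 11194 units in IFNAR-/- DCs at 14 h, 3135 to 6039 units in WT DCs at 14 h and 1734 to 2844 units in unstimulated DCs. Whether Oasl1 messages came from such cells was not tested.

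Between the time points, 0 of 7 members were called in WT DCs (14 h against 4 h, 3.26% of all genes called higher and 3.07% lower). Oas3 missed the fold limit narrowly, with 7.90 to 9.62 in WT DCs at 14 h, against 9.55 to 9.93 at 4 h, a difference of -0.97 ± 0.15 or 1.96-fold (adjusted p = 4.91e-06). All but 1 of the 6 samples of 14 h lay below all of 4 h, the exception being WT 14 h replicate 6. Oas1a passed the p limit too, at 1.32-fold (-0.40 ± 0.13, adjusted p = 0.0156), as 16.6% of all genes did in this direction. The other 5 differed by -0.30 to 0.24 on their brightest probes and overlapped widely. The probes of Oasl1 differed in sign, with 0.24 for the brightest and -0.29 and -0.80 for the dimmer ones. The value of -0.80 passed the p limit (adjusted p = 0.0266 in limma over all kept probes) but not the fold limit. In IFNAR-/- DCs 0 of 7 members were called (1.42% of all genes higher and 0.541% lower). Oasl2 was 11.38, 11.13 and 11.19 at 14 h, against 9.33, 10.39, 10.29 and 10.38 at 4 h, with no overlap (11.4% of all genes were higher without overlap) and a change of 1.13 ± 0.68 (adjusted p = 0.412). Oasl1 gave 0.49 ± 0.56. Markers of other cells moved between the times as well. In WT DCs 3 of 3 tested monocyte, 2 of 6 red pulp macrophage and 1 of 3 plasmacytoid DC markers were called lower at 14 h. In IFNAR-/- DCs 3 of 6 red pulp macrophage, 1 of 3 monocyte and 1 of 3 neutrophil markers were called higher at 14 h. Their part in these changes was not tested.

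The difference between IFNAR-/- and WT DCs at 14 h minus that at 4 h called 0 of 7 members (3.85% of all genes higher and 3.16% lower). Oas3 passed the p limit with 0.97 ± 0.26 (adjusted p = 0.00755), as 7.67% of all genes did, but was under the 2-fold limit. As Oas3 was at or next to the floor in IFNAR-/- DCs at both times, this value repeats the difference between WT DCs of 14 h and 4 h. For Oasl1 the value was 0.24 ± 0.69, with a 95% interval of the ratio of 0.448 to 3.13. Of cell markers 3 of 3 tested monocyte and 4 of 6 red pulp macrophage markers were called higher in this contrast. Of 5 tested conventional DC markers 1 was called lower. The part of these markers was not tested.

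**Figure D4:**
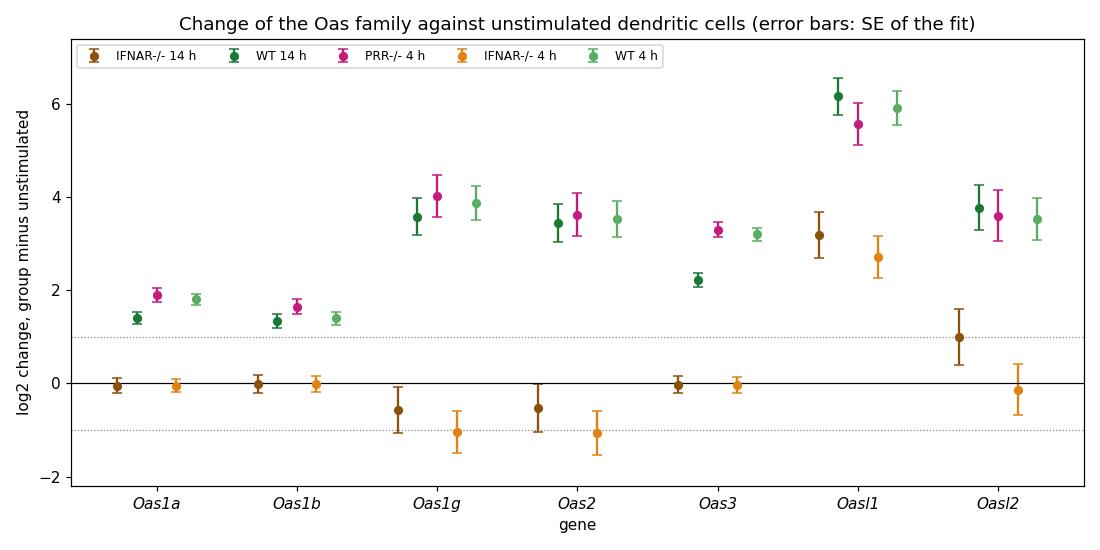
Log2 change of each OAS family gene (horizontal axis) in the 5 poly IC groups against unstimulated DCs (vertical axis), from limma, with the SE of the fit as error bars and the 2-fold limits as dotted lines. Oasl1 lies at 3.20 and 2.71 in IFNAR-/- DCs of 14 h and 4 h, while all 7 genes lie between 1.34 and 6.16 in PRR-/- and WT DCs.

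Other genes of the pathway were read from lists chosen from general knowledge. Of 5 further Oas1 genes 3 were tested (Oas1c, Oas1d and Oas1e) and 0 were called in any of the 12 comparisons. Oas1d was 1.60-fold higher in WT DCs at 4 h than in unstimulated DCs (0.68 ± 0.07, adjusted p = 3.54e-09), under the fold limit. The Oas1 genes resemble each other and lie side by side, so that a probe may read more than 1 of them. Of 3 genes tested that act on the 2-5A pathway, 0 were called in any comparison. Akap7, whose product can degrade 2-5A, passed the p limit with -0.53 ± 0.10 in IFNAR-/- DCs (adjusted p = 0.000431) and -0.66 ± 0.09 in WT DCs (adjusted p = 2.68e-07) at 4 h against unstimulated DCs. Pde12, a 2-5A phosphodiesterase, and Abce1, an ATP-binding cassette protein, gave 0.20 and -0.34 in WT DCs without passing it.

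Of the genes for the IFN receptor and its transcription factors 12 of 14 were tested. Against unstimulated DCs at 4 h, 4 were called higher in PRR-/- DCs. In IFNAR-/- DCs 0 were called higher and 1 lower, with a list median of 0.01, and in WT DCs 3 higher and 0 lower, with a list median of 0.67 (-0.02 for all genes). Irf7, the factor whose translation Oasl1 restrains, gave -0.33 ± 0.36 in IFNAR-/- DCs (adjusted p = 0.643) and rose by 4.49 ± 0.29 in WT DCs (adjusted p = 3.55e-13). Usp18, which dampens IFNAR signalling, gave -0.85 in IFNAR-/- DCs (adjusted p = 0.0892) and rose by 3.47 in WT DCs, and Stat2, a subunit of ISGF3, gave 0.03 in IFNAR-/- DCs and rose by 2.36 in WT DCs. Irf8, a factor of DC development, was the gene called lower in IFNAR-/- DCs (-1.39 ± 0.35, adjusted p = 0.00495).

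Of 9 genes for sensors and effectors of double-stranded RNA, 5 were called higher in PRR-/- DCs, 0 higher and 0 lower in IFNAR-/- DCs, and 6 higher in WT DCs at 4 h against unstimulated DCs. The gene missing from the PRR-/- count was Ifih1, which these cells lack. Ddx58, encoding RIG-I, gave -0.20 in IFNAR-/- DCs and rose by 3.29 in WT DCs. Zbp1, a nucleic acid sensor, and Dhx58, encoding LGP2, rose by 3.05 and 2.83 in WT DCs. Eif2ak2, encoding the kinase PKR, gave -0.79 ± 0.25 in IFNAR-/- DCs (adjusted p = 0.0275), short of 2-fold, and rose by 2.50 in WT DCs. Dhx58 in IFNAR-/- DCs came to -0.99 ± 0.22 (adjusted p = 0.00195), also short of it.

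A last list held IFN-inducible genes that IRF3 can also induce without IFNAR. In IFNAR-/- DCs 1 of 8 tested was called higher at 4 h and 2 at 14 h, with medians of 0.52 and 0.75, while all 8 were called higher in WT DCs at 4 h, with a median of 4.55. Cxcl10, a ligand of CXCR3, was the gene called at 4 h, with 2.73 ± 0.38 in IFNAR-/- DCs (adjusted p = 5.61e-06) and 6.53 in WT DCs. At 14 h Cxcl10 gave 1.55 ± 0.42 (adjusted p = 0.014), and Ccl5, a chemokine named here after its value was seen, 1.41 ± 0.36 (adjusted p = 0.00958). Cmpk2, a nucleotide kinase, and Isg15, a ubiquitin-like modifier, gave 0.49 and 0.53 in IFNAR-/- DCs at 4 h without passing the test (adjusted p = 0.425 and 0.389), and rose by 4.92 and 4.74 in WT DCs. Ifnb1 was detected on 0 of 9 unstimulated arrays, so that its changes are lower bounds, at least 0.50 in IFNAR-/- DCs (adjusted p = 0.298) and at least 4.55 in WT DCs (adjusted p = 8.08e-15).

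The genes outside the family whose levels were most like those of Oasl1 over the 33 samples were Tmem106a, Gbp2, Tspo, Gca and Ass1, with Pearson correlations of 0.969, 0.964, 0.962, 0.95 and 0.945. Their changes in IFNAR-/- DCs at 4 h against unstimulated DCs were 1.28, 2.16, 1.00, 1.58 and 0.75, and in WT DCs 2.43, 4.68, 2.27, 2.65 and 1.88. For Oas3 they were Rilpl1, Daxx, Nt5c3, Gm12185 and Rtp4, with correlations of 0.992, 0.986, 0.982, 0.978 and 0.978. Those genes gave -0.14 to 0.04 in IFNAR-/- DCs at 4 h and 1.75 to 3.62 in WT DCs. The samples fall into treated and unstimulated groups and share their arrays, so these correlations describe the pattern over groups.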

How the data were processed

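The Illumina mouse bead array files held, per the file headers, a non-normalized signal intensity for each probe and array, exported by the authors without normalization. Beside it stood a detection p-value as deposited, which compares the probe with the negative control beads. The authors also deposited log2 values, which per their methods had been quantile normalized and set to the median of all samples, and which served as an alternative. Gene symbols came from the platform annotation, which paired 23978 of 25697 probes with 1 gene.

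Each array was floored at its lowest detected intensity (74.4 to 107.6 units), log2 transformed and quantile normalized over 36 arrays. Probes with a detection p under 0.05 on 3 or more arrays were retained (14202), and the brightest kept probe stood for its gene (9606 genes, of which 2589 had several). Close pairs of arrays (median absolute difference 0.0739 to 0.082, against 0.108 to 0.429 in 99 other pairs) were averaged, which left 33 samples. limma (version 3.58.1, R 4.3.3) was fitted with a mean per group, and p-values were adjusted by Benjamini-Hochberg over all genes. The procedure was tested on simulated data. Equal replicate numbers paired the PRR-/- 4 h and IFNAR-/- 4 h samples with each other and with unstimulated samples by their correlated deviations (r of 0.124 or more in every pair), and not the other groups. The number of arrays limits the precision, and 95% intervals are those of the fit.

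For family members and listed genes, "at least" is given where no array of the dimmer group detected the probe, whose level there is the array's lowest detected signal. Family members and gene lists were chosen with earlier results of these data known. All members were named, and from each list up to 4 genes called at 4 h in WT or IFNAR-/- DCs with the largest WT change. Promoter windows were taken from RefSeq (GRCm38.p6).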

Additional observations from a re-analysis of the deposited data

Results flagged for a closer look

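Dixon's test at the 95% level was run for the family members within groups of 4 to 10 samples, in 33 combinations of gene and group. Of these, 6 held a sample that lay apart from the others, where chance marks about 1 test in 20. The combinations share samples, so the tests are not independent. That rate does not hold for 3 of the 6, in which all or nearly all other samples were tied at the floor, so that any sample off it stands apart. Of the 6, 2 were the averaged replicates 1 and 2 of IFNAR-/- DCs at 4 h, and 4 came from Unstimulated replicates 4 and 9. In Unstimulated replicate 9, Oas1g was 6.63 and Oasl2 6.62 on the log2 scale, next to the floor of 6.49, where the other unstimulated samples had at least 9.70 and 9.83. In Unstimulated replicate 4, Oas3 was 6.88 and Oas1b 6.63, where nearly all others were at the floor. The averaged replicates 1 and 2 of IFNAR-/- DCs at 4 h had 9.33 for Oasl2, against 10.29 to 10.39 in the others, and 6.58 for Oas3, against 6.49 in the others.

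For Oas3 the difference between IFNAR-/- and WT DCs at 14 h minus that at 4 h was 0.97 ± 0.26 (adjusted p = 0.00755 in limma), which passed the p limit but not the 2-fold limit, so that it was not called. As IFNAR-/- DCs were at or next to the floor at both times, the value repeats the difference between WT DCs of 14 h and 4 h. IFNAR-/- DCs were at 6.49 to 6.55 at 14 h and 6.49 to 6.58 at 4 h, and WT DCs at 7.90 to 9.62 at 14 h and 9.55 to 9.93 at 4 h.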

How the results depend on the processing

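All 7 members stayed called in PRR-/- and WT DCs against unstimulated DCs, in IFNAR-/- against WT DCs at both times and in PRR-/- against IFNAR-/- DCs under every alternative run, and 0 were called between PRR-/- and WT DCs. No direction of a called gene turned. Oasl1 in IFNAR-/- against unstimulated DCs ranged over 2.02 to 3.22 at 4 h in 16 alternatives (adjusted p of 1.51e-05 to 0.0088) and over 2.12 to 3.74 at 14 h in 15 (adjusted p of 9.09e-06 to 0.00589).

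The count for IFNAR-/- 4 h against unstimulated DCs, 1 as reported, was 3 with the replicate number as a block and 3 without Unstimulated replicates 4 and 9, which each added Oas1g and Oas2 as lower, and 2 with the sets of similar samples as a block, which added Oas2 (-1.56). The last 2 settings were added after the data were seen. In these settings Unstimulated replicate 9 was left out, was the sole sample of its number or lay outside the sets. They are thus not separate from leaving that sample out. Unstimulated replicates 6, 7 and 8 lay outside the sets too. With each sample left out in turn this count was 1 to 3 (3 without Unstimulated replicate 9), that of IFNAR-/- 14 h against unstimulated DCs 1 to 2 (2 without the same sample), and those of WT 14 h against 4 h and of the time difference of the IFNAR effect 0 to 1 (1, Oas3, without WT 4 h replicate 3 or WT 14 h replicate 3, 5 or 6). WT 14 h against 4 h gave 1 call with neqc background correction (Oas3, -1.08) and 2 with no fold limit (Oas1a and Oas3). The time difference of the IFNAR effect gave 1, Oas3, with neqc (1.37), with no floor (1.16), with the authors' normalized values (1.17) and with no fold limit (0.97). IFNAR-/- 14 h against 4 h gave 1 with the replicate number as a block (Oasl2, 1.39 ± 0.41, adjusted p = 0.0342), where the numbers did not pair the samples (r of -0.198 and -0.172 in 2 pairs). The block changed no other count. The cause of these moves was not tested, beyond the samples left out and the fold limit itself.

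Signals at the floor limit Oas1a, Oas1b and Oas3 in IFNAR-/- and unstimulated DCs. Scaling arrays by the median gave a median change of all genes of -0.16 in WT DCs at 14 h against 4 h and of 0.14 in WT DCs at 4 h against unstimulated DCs. Over all genes, neqc gave 626 higher and 541 lower calls for WT 4 h against unstimulated DCs, in place of 461 and 230, and 226 and 489 for IFNAR-/- against WT DCs at 4 h, in place of 79 and 365. The methods' t-test was not run for the time difference, nor the block of sets for comparisons with 14 h samples.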
